A study of Mus musculus with 2 samples.

Results

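The neutrophils of imiquimod (IMQ)-treated mouse dermis made up 723 of 4721 dermal cells left after filtering, a share of 15.3% (exact 95% interval 14.3 to 16.4%), and 723 of 10634 barcodes in the whole series. They were chosen by their own counts of unique molecular identifiers (UMIs, 1 per captured transcript). A member had 200 to 5000 detected genes, at most 10% of its UMIs from mitochondrial genes, at least 5 UMIs of Cxcr2, Retnlg, Ly6g and Mrgpra2b together, under 20 C1qa, C1qb and C1qc UMIs per 10000, and at most 1 Cd3d, Cd3e and Cd3g UMI. Of 827 dermal cells with 5 or more gate UMIs, 70 were left out for C1q and 36 for Cd3, with 2 left out for both. The gate genes therefore describe the members and are no result. Just outside the limit lay 197 cells with 4 gate UMIs, and just inside it 127 with exactly 5, both before the C1q and Cd3 limits, and 89 of the 127 were members.

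The series profiled skin of wild-type C57BL/6 mice with the 10x Genomics 3' method after 5 days of IMQ, a Toll-like receptor agonist that causes psoriasis-like inflammation. The labels give an age of 10 weeks and place the treatment on the ear, whereas the methods describe males that were younger when treated and give doses for both ear and back. By the methods, the sort of dermal cells kept leukocytes (CD45+) and that of epidermal cells did not select for them, while the labels mention only the removal of dead cells. Each tissue is 1 library and no untreated skin was profiled, so no difference between groups could be tested, and the number of mice behind a library is not given in the sources used here. The dermal library held 5376 barcodes and 41258087 UMIs, and the epidermal library 5258 barcodes and 108768396 UMIs. The same gate took 26 of 3277 passing epidermal cells, a share of 0.793% (0.519 to 1.16%). The libraries shared 45 barcode sequences, of which 8 were dermal members and none was a cell that met the gate in both.

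Neutrophils are short-lived granulocytes that leave the bone marrow with their granule proteins already made and enter inflamed tissue by following chemokines through Cxcr2. Primary granules are filled first in their development, then secondary and gelatinase granules, and the genes of each set fall silent as the cell matures. Once in tissue they make few transcripts, among them calgranulins, interleukin 1 and chemokines that call in further neutrophils. In psoriasis-like skin they gather in the dermis and reach the epidermis.

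Levels are given as CPM, the UMIs of a gene per 1000000 UMIs of all cells of a class, and intervals on levels (exact Poisson), shares (exact Clopper-Pearson) and ratios (exact conditional) cover counting error only, not the spread between cells or mice. Retnlg, which encodes a resistin-like protein, supplied 94.1% of the gate UMIs, with a lowest count of 0, a median of 28 and a highest of 732 UMIs per member. Cxcr2, the receptor for Cxcl1 and Cxcl2, was seen in 62.7% of members, the surface marker Ly6g in 39.3% and the Mas-related receptor Mrgpra2b in 40.0%. Retnlg was also seen in 65.7% of 268 dermal T cells, which should lack it, at up to 4 UMIs per cell, at a median depth of 7832 UMIs against 5475 in members. The rule for T cells, at least 3 Cd3 UMIs and fewer than 5 gate UMIs, sets that upper end.

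The label fits the members with many gate UMIs and less so those near the limit. Calgranulin transcripts (S100a8 and S100a9), which the rule did not use, made up a median of 12.0% of a member's UMIs, with a range of 0.0971 to 42.7%, against 0.196% in the Ly6c2 monocytes described further on and 0.172% in T cells. The 533 members with 10 or more gate UMIs had a median of 14.9%, the 190 with 5 to 9 had 1.20%, the 89 with exactly 5 had 0.232%, and the 197 non-members with 4, to which no C1q or Cd3 limit was applied, had 0.211%. Members with exactly 5 gate UMIs were deep, at a median of 10416 UMIs, and 26.2% of their UMIs came from ribosomal protein genes, against 8.79% in members with 10 or more. Of the 190 members with 5 to 9 gate UMIs, 87 had no UMI of any gate gene other than Retnlg. Values are therefore given for all 723 members and, for lists other than the markers of other cells, calls against monocytes are also given for the 533 where they differ. Among the non-members, 122 had at least 5% calgranulin UMIs, with a median of 2 gate UMIs and 2228 UMIs in all. The median depth of these 122 was below that of the members. Not all of them lay below the limit, since 16 had 10 or more gate UMIs.

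**Figure D1:**
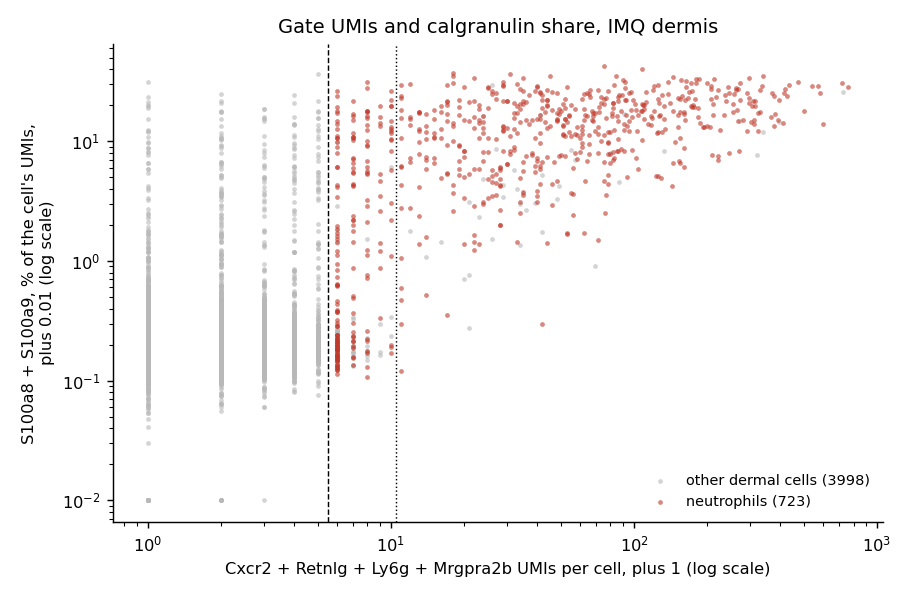
Each point is 1 dermal cell that passed the filters, with its Cxcr2, Retnlg, Ly6g and Mrgpra2b UMIs plus 1 (horizontal, log scale) against the share of its UMIs from S100a8 and S100a9 plus 0.01 (vertical, log scale). Red points are the 723 neutrophils, grey points the 3998 other cells, the dashed line marks the limit of 5 UMIs and the dotted line 10 UMIs; a low group of members near 0.2% lies between the lines.

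The members were split by calgranulin share to see how other genes stood along it. The 98 members under 1% had 33.5 CPM of Csf3r, the receptor for granulocyte colony-stimulating factor, the 94 at 1 to 5% had 161 CPM, the 248 at 5 to 15% had 332 CPM and the 283 at 15% or more had 451 CPM. H2-Aa, an antigen-presenting MHC class II chain, ran the other way, at 2924, 1129, 472 and 319 CPM. Cxcl2 was at 2320, 6895, 11863 and 11632 CPM, level over the last step, and Ly6c2, a gene that chose the monocytes, was at 199.7, 277, 357 and 531 CPM. Median depth fell along the same steps, from 14199 to 8730, 4823 and 4463 UMIs. The part of doublets and of free RNA in the members with little calgranulin was not tested.

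S100a8 and S100a9, the 2 chains of calprotectin, were the most abundant transcripts of the neutrophils. S100a8 stood at 48742 CPM (48561 to 48924) and S100a9 at 43056 CPM (42886 to 43227), against 2139 and 1315 CPM in monocytes. Every member had both, with a lowest, median and highest count of 1, 276 and 2385 UMIs for S100a8 and 2, 255 and 1856 UMIs for S100a9. In 526 members with 10 or more gate UMIs, each thinned to 1000 UMIs, the 2 genes had a Spearman rho of 0.88 across cells of 1 library, a description that shares depth and source. The genes lie close together on chromosome 3 (GRCm38), S100a8 at chr3:90668978-90670035 and S100a9 at chr3:90692632-90695721, on opposite strands.

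The sequence before each of these starts is shown because the 2 transcripts varied together between cells. It comes from the RefSeq table for GRCm38.p6, taken up to 250 bases before the start, and is cut where a GENCODE exon begins, which left out 93 bases for S100a8. Capitals mark the letters TTNNGNAA or its reverse complement TTNCNNAA, like the site of C/EBP factors, which 36.8% of all 32851 promoter entries hold in the same window, and GGGANTTTC or its reverse complement GAAANTCCC, like the site of NF-kB, which 0.941% hold. Distances are counted from the RefSeq start, which for S100a8 lies 93 bases inside the GENCODE gene. S100a8 (chr3:90668821-90668977, plus strand) has 1 C/EBP-like match that begins 117 bases before the RefSeq start. S100a9 (chr3:90695722-90695971, minus strand) has 2, beginning 236 and 130 bases before its RefSeq start. It also has an NF-kB-like match at 135 bases that overlaps the second of them. A match is a description of letters and not evidence of binding.
S100a8: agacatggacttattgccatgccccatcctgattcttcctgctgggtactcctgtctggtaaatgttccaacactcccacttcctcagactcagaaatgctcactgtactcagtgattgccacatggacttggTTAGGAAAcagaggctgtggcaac
S100a9: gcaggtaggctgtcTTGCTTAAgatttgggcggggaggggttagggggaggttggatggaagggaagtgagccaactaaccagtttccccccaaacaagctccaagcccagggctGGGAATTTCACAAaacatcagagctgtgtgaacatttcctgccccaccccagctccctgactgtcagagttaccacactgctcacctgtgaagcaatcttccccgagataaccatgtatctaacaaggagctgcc

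The rest of the 20 most abundant transcripts mixed neutrophil products with genes that most cells use. Fth1, the ferritin heavy chain that stores iron, reached 29533 CPM against 10818 in monocytes, whereas Ftl1, its light chain, was close in both, at 9382 and 8113 CPM. Cxcl2, a chemokine for neutrophils, ranked 7 with 8453 CPM (8377 to 8529), the antimicrobial Wfdc17 reached 7913 CPM, and Il1b, the inflammatory cytokine interleukin 1 beta, ranked 19 with 3878 CPM (3827 to 3929). Ifitm1, an interferon-induced membrane protein, stood at 5833 CPM in neutrophils and 1329 in monocytes. Lyz2, lysozyme, was lower in neutrophils at 4472 CPM than in monocytes at 15445. Cytoskeletal Tmsb4x and Actb were near the monocyte level, at 16313 and 5943 CPM against 17225 and 6818. For Ftl1, 65.6% of the 50-base words at the ends of its transcripts also occur in another gene, so its level is uncertain.

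**Figure D2:**
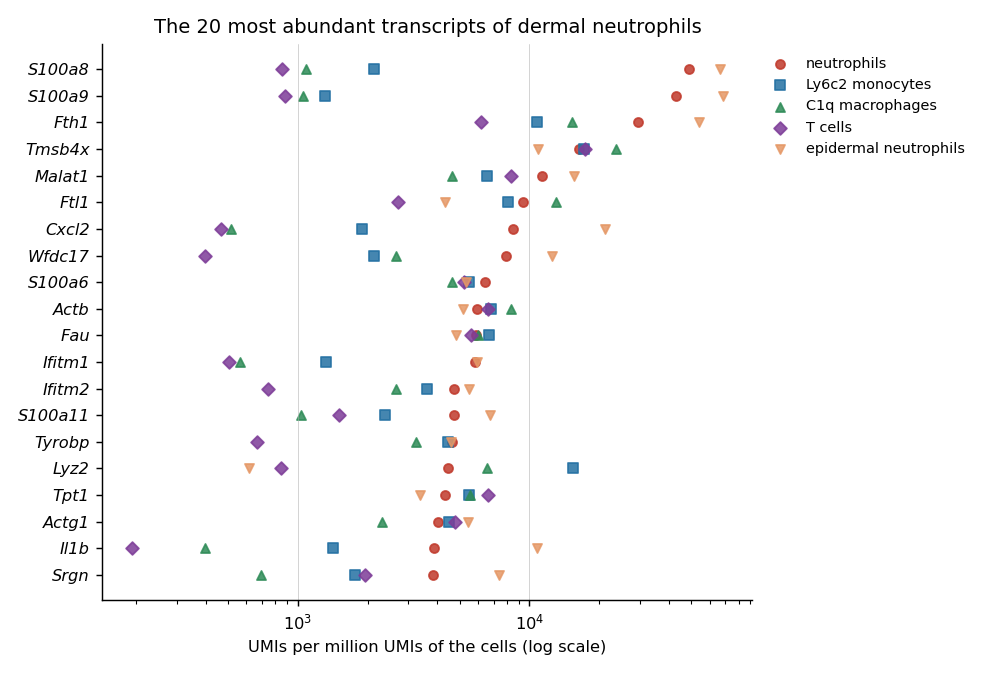
UMIs per 1000000 UMIs (log scale) of the 20 most abundant transcripts of the 723 dermal neutrophils, in 5 groups of cells summed over their cells. S100a8, S100a9, Cxcl2, Ifitm1 and Il1b stand to the right in neutrophils of both tissues, and Lyz2 in Ly6c2 monocytes.

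The nearest blood-derived relatives in the same library were 544 Ly6c2 monocytes, cells with at least 3 UMIs of Ly6c2 and 1 of Ccr2, Ms4a4c or F13a1, fewer than 5 gate UMIs and the same C1q and Cd3 limits. Their median depth was 9735 UMIs against 5475, and the 2 sets held 5532843 and 5694369 UMIs in all. Of 8336 genes with at least 50 UMIs over both, 743 (8.91%) were at least 2-fold higher in neutrophils and 357 (4.28%) at least 2-fold lower, with a median log2 ratio of -0.18. After centring on that median the counts were 883 and 194. For the 533 members with 10 or more gate UMIs, 626 of 7646 genes (8.19%) were higher and 1033 (13.5%) lower, or 975 and 320 after centring on a median of -0.37. With a mean over cells in place of summed UMIs, 814 were higher and 1293 lower. These are counts past a fold, with 1 library and no replicate, and the list counts below stand beside these shares as descriptions.

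Neutrophil identity genes and stefins separated the classes most. Of 12 identity genes outside the gates, all 12 were at least 2-fold higher in neutrophils, with a median log2 ratio of 3.31. One of the 12, Mrgpra2a, shares most of its transcript end with other genes, the gate gene Mrgpra2b among them, and is not clearly outside the gate. Mmp9, gelatinase B, stood at 282 CPM against 7.05, a 40.1-fold difference (29.2 to 56.6), and Acod1, which makes itaconate, at 640 against 43.2 CPM. G0s2, an inhibitor of lipolysis, stood at 714 against 34.0 CPM, and Csf3r at 255 against 38.1 CPM. Trem1, a receptor that amplifies inflammation, reached 445 against 81.7 CPM, and Il1r2, the decoy receptor for interleukin 1, 1089 against 176 CPM. Hdc, the enzyme that makes histamine, reached 547 against 90.4 CPM. In members thinned to 1000 UMIs, Csf3r was seen in 27.3%, against 4.04% of monocytes and 1.51% of T cells.

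The stefin A genes, inhibitors of cysteine proteases that lie together on chromosome 16, had the highest median ratio of the lists. Of 9, 7 had 50 UMIs or more, and all 7 were at least 2-fold higher in neutrophils, with a median log2 ratio of 5.59. Gm5483 (chr16:36184212-36188111) stood at 1434 CPM against 23.3 in monocytes, Stfa2l1 (chr16:36156811-36161953) at 1151 against 23.9 CPM, Stfa1 at 364 against 8.13, BC100530 at 249 against 5.78, and Stfa2 at 146 against 2.17. At the transcript ends of Stfa1, Stfa2, Stfa2l1, Gm5483 and BC100530, 19.1 to 31.0% of the 50-base words also occur in another gene. Stfa1 and BC100530 shared words with each other, as did Stfa2 and Stfa2l1, which also shared words with Gm49652, outside the list. Gm5483 shared its words with 2010005H15Rik, also outside the list, and Stfa3 and Gm5416 shared none. The levels of the sharing genes are therefore uncertain, and so is the sum of the list, at 3420 CPM against 65.2. The stefin genes were not spread evenly over the members. Stfa2l1 was seen in 484 members and Gm5483 in 449, whereas BC100530, Stfa2 and Stfa1 were seen in 116, 119 and 150.

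Genes of early granules were near absent and those of later granules present. Of 5 primary granule genes, the myeloperoxidase gene Mpo had no UMI in 5694369, Elane (neutrophil elastase) 1, Ms4a3 3 and Ctsg (cathepsin G) 5 UMIs, and only Prtn3 (proteinase 3) had more, at 22.0 CPM against 77.7 in monocytes. Of 11 secondary granule genes, 10 had 50 UMIs or more and 9 of them were at least 2-fold higher in neutrophils, with a median log2 ratio of 3.12. The iron-binding Lcn2 stood at 1920 against 206 CPM, Wfdc21 at 1729 against 347, the peptidoglycan receptor Pglyrp1 at 716 against 88.0, and the collagenase Mmp8 at 249.5 against 87.7. Chil3, a chitinase-like protein made by both myeloid lineages, ran the other way, at 547 against 2370 CPM. Of 5 measured gelatinase granule genes, Mmp9, Adam8 and the formyl peptide receptor Fpr1 were at least 2-fold higher, while Hp (haptoglobin) was near equal, at 1188 and 961 CPM.

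Ngp, Camp and Ltf, which belong to late precursors in bone marrow, were high in very few members. Ngp stood at 403 CPM (387 to 420) and 62.0-fold above monocytes (44.6 to 88.7), but 72 members held 92.6% of its UMIs and 1 cell held 17.0%. Camp, the cathelicidin gene, had 475 UMIs in 48 members, 33.3% of them in 1 cell, and Ltf, lactoferrin, had 283 UMIs in 33 members, 46.6% in 1 cell. Just 9 members had at least 3 UMIs of each of the 3 genes, and they held 52.6% of the Ngp, 84.6% of the Camp and 87.6% of the Ltf UMIs. Those 9 cells were deeper, with a median of 13141 UMIs against 5475 over all members, and had a median of 268 gate UMIs and 16.4% calgranulin UMIs. The 9 were chosen after their values were seen, and the gate UMIs are part of the rule.

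Receptors that guide neutrophils were mostly higher than in monocytes. Of 11 chemoattractant receptors outside the gates, 8 were at least 2-fold higher and 1 lower, with a median log2 ratio of 1.40. Fpr1, which senses bacterial formyl peptides, stood at 261 CPM against 29.6, C5ar1, the complement C5a receptor, at 443 against 85.5, Ccrl2 at 490 against 143, and Ccr1 at 425 against 154. Cxcr1 was seen at 10.5 CPM, 60 UMIs against 1 in monocytes (58.3-fold, 10.1 to 2341). Cx3cr1, the fractalkine receptor of patrolling monocytes, was the lower one, at 41.6 against 152 CPM. Cxcr4, a retention receptor, differed less, at 74.3 and 49.2 CPM.

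Of 16 measured growth factor and cytokine receptors, 4 were at least 2-fold higher in neutrophils and none lower, at a median log2 ratio of 0.20. They were Csf3r, Il1r1, Il1r2 and Il1rap, 3 of which bind interleukin 1 or serve its receptor. Il1rap stood at 60.6 against 8.50 CPM, and Il1r1, the signalling receptor, at 18.3 against 4.16, with 104 UMIs in 48 members. Il17ra, through which interleukin 17 signals, was at 74.1 and 48.8 CPM, and its partner Il17rc was under the 50-UMI limit at 19 UMIs in neutrophils. The 11 adhesion genes held 1 at least 2-fold higher, Pecam1, at 25.1 against 10.7 CPM, which among the 533 members was not past 2-fold (log2 ratio 0.63), whereas Selplg was.

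Chemokines and cytokines of the neutrophils were dominated by Cxcl2 and Il1b. Cxcl2 stood at 8453 CPM against 1899 in monocytes, 4.45-fold higher (4.36 to 4.55), with a lowest, median and highest count of 0, 45 and 807 UMIs per member. Il1b stood at 3878 against 1420 CPM, 2.73-fold higher (2.66 to 2.80), with 0, 21 and 372 UMIs. In cells thinned to 1000 UMIs, Cxcl2 was seen in 86.4% of members, 46.9% of monocytes and 25.7% of T cells. Cxcl3, a close relative of Cxcl2, reached 252 against 40.5 CPM, and the T cell and monocyte attractants Ccl3 and Ccl4 reached 1980 and 1798 against 846 and 941 CPM. The Il1b antagonist Il1rn stood at 198 against 68.3 CPM, Tnf at 338 against 93.4 and Csf1 at 75.2 against 11.2.

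Of 16 cytokines measured, 9 were at least 2-fold higher and 2 lower, with a median log2 ratio of 1.10, and of 15 chemokines 6 were higher and 1 lower, with a median of 0.68. Il23a, a subunit of interleukin 23, was among the higher ones at 27.2 against 4.70 CPM, or 155 UMIs in 81 members. Lower were Il10, at 18.1 against 56.0 CPM, Il18, at 15.8 against 32.0, and the monocyte attractant Ccl9, at 297 against 855. Among the 533, 8 cytokines were higher and 4 lower, with Il17a no longer called and Il6 and Tgfb1 called lower. Of the chemokines, 5 were higher and 2 lower among the 533, with Cxcl5 and Ccl22 no longer called, Ccl4 called higher and Ccl5 called lower. Cxcl5 was at 134 CPM in all members but 14.7 CPM in the 533, with 32.4% of its UMIs in 1 cell, and its log2 ratio went from 4.13 to 0.95. Il6 went from 93.4 to 21.7 CPM and a log2 ratio of -1.73, and Ccl17 from 75.9 to 28.6 CPM, still past 2-fold. Il17a was at 10.4 CPM and in 1.41% of thinned members against 0.551% of thinned monocytes and 12.8% of thinned T cells.

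Cxcl2 is shown with the sequence before its start because it was the most abundant chemokine in both tissues. Its window is chr5:90903649-90903870 (plus strand, GRCm38.p6, with 28 bases left out at the exon). The window has a C/EBP-like match at 236 bases and an NF-kB-like match at 97 bases before the RefSeq start, again in capitals. The NF-kB-like letters also occur once in the windows of Cxcl1 and Cxcl3 but in none of those of Il1b, Ccl3, Retnlg and Acod1, and say nothing about use.
Cxcl2: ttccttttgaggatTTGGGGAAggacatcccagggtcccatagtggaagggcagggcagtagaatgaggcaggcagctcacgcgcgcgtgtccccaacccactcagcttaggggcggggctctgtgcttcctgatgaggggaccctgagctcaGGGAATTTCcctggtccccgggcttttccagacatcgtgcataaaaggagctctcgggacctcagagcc

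Mrgpra2b, a gate gene, and Mrgpra2a, which the rule did not use, are neighbours on chromosome 7. Their 250 bases before the RefSeq start are identical at 250 positions. At their transcript ends, 70.2% and 71.8% of 50-base words occur in another gene. Their UMIs are therefore uncertain, and levels of 135 CPM for Mrgpra2b and 44.4 CPM for Mrgpra2a need not be those of 2 separate genes. Mrgpra2a stood at 2.71 CPM in monocytes. The window of Mrgpra2b (chr7:47489587-47489832, minus strand, GRCm38.p6, with 4 bases left out at the exon) precedes the RefSeq start. It lies inside the longer GENCODE span of that gene (chr7:47463806-47528862). The window is printed once for both genes, with its 3 C/EBP-like matches in capitals.
Mrgpra2b: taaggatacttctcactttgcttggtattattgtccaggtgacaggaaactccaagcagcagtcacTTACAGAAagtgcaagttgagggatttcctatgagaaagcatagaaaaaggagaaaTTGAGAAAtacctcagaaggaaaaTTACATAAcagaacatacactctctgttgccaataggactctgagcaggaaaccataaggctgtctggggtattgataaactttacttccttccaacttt

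Genes of sensing and killing showed a mixed picture. Of 18 activating and inhibitory receptors, 6 were at least 2-fold higher in neutrophils and none lower, among them the C-type lectins Clec4d, at 846 against 272 CPM, and Clec4e, at 948 against 391. Trem3 joined them among the 533. The Fc receptor gene Fcgr3 was close in both, at 380 and 342 CPM. Of 14 measured Toll-like receptor and inflammasome genes, 4 were higher (Tlr6, Tlr13, Cd14 and Nlrp3) and 1 was lower, the adaptor Pycard, at 268 against 564 CPM, with Tlr1 also higher among the 533. Tlr7, a receptor for IMQ, was at 9.66 CPM against 13.6, and Tlr8 had 3 UMIs. The oxidase that makes superoxide was not higher: of 7 NADPH oxidase genes none was 2-fold higher, and Cybb, its catalytic chain, was lower at 129 against 330 CPM (0.391-fold, 0.359 to 0.427). Among the 533, Ncf1 passed 2-fold. Of 8 extracellular trap and eicosanoid genes 4 were higher, including Padi4, which citrullinates histones, at 12.6 against 3.98 CPM, and 2 of the 4, Padi4 and Alox5, were so among the 533.

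Of 22 measured interferon-stimulated genes, 3 were at least 2-fold higher and 4 lower, with a median log2 ratio of -0.15. Ifitm1, Slfn1 and Slfn4 were higher, Slfn4 at 60.6 against 10.7 CPM, whereas the antiviral Mx1, at 6.15 against 14.5, and Bst2, at 105 against 267, were lower with Ifit2 and Slfn5. Among the 533, Oasl2 and Ifitm6 were also higher, which made 5 higher and 4 lower. Isg15, a ubiquitin-like product, was at 129 and 86.0 CPM. Of 13 survival and death genes, 3 were higher (Bcl2a1a, Bcl2a1b and Fas), joined by Bcl2l11 among the 533, and Mcl1, on which neutrophil survival rests, stood at 507 and 417 CPM. Of 21 transcription factor genes, none was at least 2-fold higher and Cebpa was lower, at 14.2 against 32.5 CPM. Nfkbia, an NF-kB inhibitor that NF-kB itself induces, was at 2595 against 1311 CPM and Cebpb at 2547 against 1560. Among the 533, Nfkbia, Nfkbiz, Klf2 and Egr1 passed 2-fold. The precursor factors Cebpe and Gfi1 had 24 and 2 UMIs.

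Of 14 glycolysis and hypoxia genes, 4 were at least 2-fold higher and none lower, namely Slc2a3, Hk3, Bnip3 and Egln3, joined by Slc2a1 among the 533. The glucose transporter Slc2a3 stood at 64.6 against 5.24 CPM (12.3-fold, 8.44 to 18.7) and Egln3, an oxygen sensor, at 24.8 against 3.43. Gapdh, Pkm and Aldoa were within 10% of the monocyte level, Gapdh at 2039 and 2110 CPM. None of 12 mitochondrial respiration genes passed 2-fold in either direction, with a median log2 ratio of -0.39. None of 10 cell cycle genes passed 2-fold over all members, and 6 were at least 2-fold lower in the 533.

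**Figure D3:**
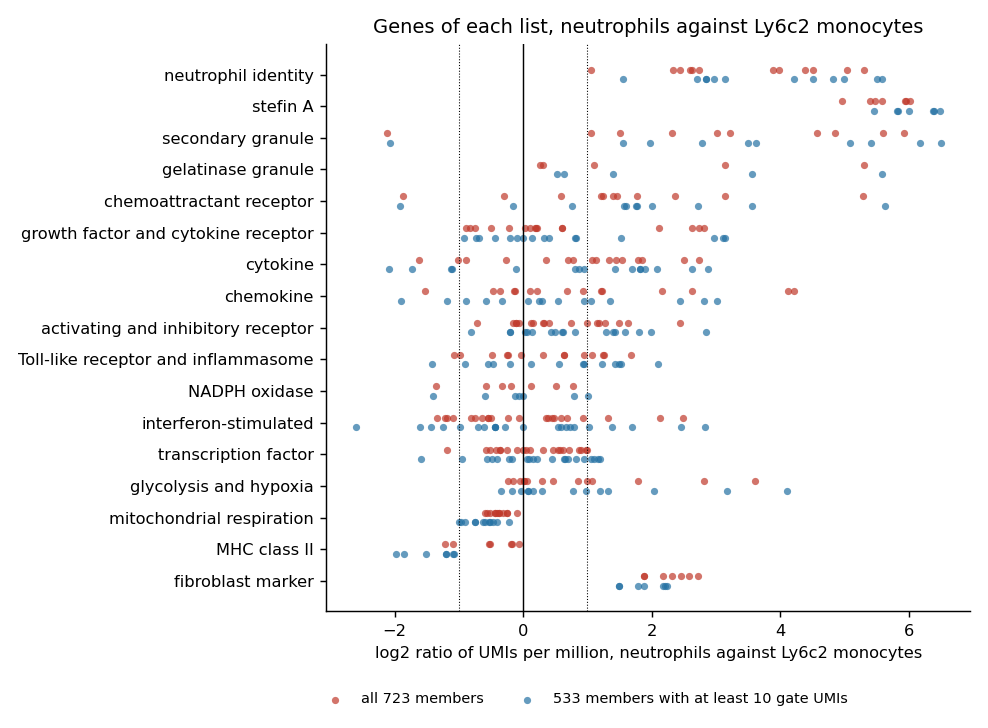
Each point is 1 gene of a list, outside the gates and with at least 50 UMIs over all neutrophils and monocytes, at its log2 ratio of UMIs per 1000000 in dermal neutrophils against Ly6c2 monocytes. Red points use all 723 members and blue points the 533 with 10 or more gate UMIs; dotted lines mark 2-fold, and of 7 MHC class II genes 2 red and 7 blue points lie beyond the lower line.

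The largest differences by gene, among those with 100 UMIs or more and outside the gates, put stefins and granule genes first. The 10 highest ratios belonged to Stfa2, Gm5483, Ngp, Camp, Stfa2l1, Lyve1, Stfa1, Cldn5, BC100530 and Mmp9, with log2 ratios from 6.01 down to 5.31. Lyve1 and Cldn5 mark lymphatic and blood vessel lining cells and came from few members: Lyve1 had 118 UMIs in 13 and Cldn5 198 UMIs in 25. Among the 10 lowest were Prss34, Cytl1, Cd7, Dmkn, Stxbp6, Plcb1, Chil3, Ms4a4b and Ly86, from -3.53 up to -1.96. Prss34, a basophil and mast cell protease, stood at 1.40 against 17.2 CPM, and with a gate of 3 UMIs its ratio and that of Cytl1 turned. Ly86, a partner of a Toll-like receptor relative, stood at 53.7 against 209 CPM.

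MHC class II genes and fibroblast markers were seen in the members. Over all members, 2 of 7 MHC class II genes were at least 2-fold lower than in monocytes, and among the 533 all 7 were. Cd74, the invariant chain, stood at 2591 CPM over all members and 1293 in the 533, against 3683 in monocytes, and 72 members held 83.5% of its UMIs. The 7 fibroblast markers were all at least 2-fold higher than in monocytes, at a summed 3550 CPM against 702, and at 2762 CPM in the 533. Dcn, a matrix proteoglycan and their most abundant member, stood at 1827 CPM, 92.8% of its UMIs lay in 72 members, and 91 members had 10 or more fibroblast marker UMIs. In thinned cells Dcn was seen in 25.3% of members, 11.8% of monocytes and 16.2% of T cells. With the highest doublet scores removed, 49 members among them, its log2 ratio was 2.92 against 2.58, and the part of fibroblast RNA in other results was not tested.

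The other marker lists summed to between 6.15 and 2160.2 CPM. The 10 keratinocyte markers summed to 17.2 CPM, with Krt5, Krt15 and Dsp at 0, and the 5 eosinophil markers to 6.15 CPM, with Prg2, Epx and Il5ra at 0 and Siglecf the most abundant at 28 UMIs. The 4 B cell markers summed to 10.7 CPM, led by Cd79b, the 4 red cell markers to 21.2 CPM, led by Hbb-bs, the 4 endothelial markers to 61.6 CPM against 5.42 in monocytes, led by Cldn5, and the 6 dendritic cell markers to 34.6 against 103 CPM, led by Clec10a. The 8 T cell markers, whose Cd3 genes the rule capped, summed to 124 against 54.0 CPM, led by Thy1. The 6 mast cell and basophil markers summed to 145 against 239 CPM, led by Mcpt8, the 9 macrophage markers to 1588 against 1922 CPM, led by Apoe and with 10 or more UMIs in 238 members, and the 6 monocyte markers, 4 of which chose the monocytes, to 2160 against 6601 CPM, led by Plac8. The common leukocyte gene Ptprc was seen in 75.7% of members.

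The share of a gene's UMIs in its richest 72 members describes how evenly it was spread, and is 100% by construction for a gene seen in 72 members or fewer. Across 234 listed genes with 100 UMIs or more, 18 had every UMI in the richest 72 members (10% of the cells), among them Birc5, Camp, Ccl17, Cldn5 and Cpa3, the first by name. Evenly spread genes were Ifitm2, with 26.0% of UMIs in its richest 72 members, Alox5ap (26.0%), Cebpb (28.4%), Ifitm1 (28.4%) and Clec4d (28.8%), and the 72 deepest members held 28.9% of all UMIs. S100a8 and S100a9 each stood at 32.3%, Il1b at 36.0% and Cxcl2 at 37.2%.

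Tertiles of the secondary granule list, over the 526 members with 10 or more gate UMIs thinned to 1000 UMIs, held 176, 175 and 175 cells, with medians of 2, 6 and 13 granule UMIs. Many cells lay at the limits, 46 at 4 UMIs and 38 at 9, so the classes are ranges. Mean S100a8 was 51.2, 79.0 and 113 UMIs per 1000 from the lowest to the highest tertile, and mean Retnlg, a gate gene, 7.75, 13.1 and 22.3. Cxcl2 went the other way, with means of 14.8, 13.9 and 10.1, as did Ccl3, with 3.09, 2.82 and 1.78, and Tnf, with 0.585, 0.497 and 0.354. Il1b differed less, at 5.53, 5.96 and 5.32, and Csf3r was at 0.426, 0.457 and 0.543. By median instead of mean, the summed chemokine list stood at 16, 17 and 14 UMIs. Together S100a8 and S100a9 had medians of 75, 145 and 212 of the 1000 UMIs, which leaves fewer for other genes. The ribosomal share fell from a median of 16.2% to 9.04% and 7.37% along the tertiles, median gate UMIs were 37.5, 51 and 102, and their part in these differences was not tested.

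**Figure D4:**
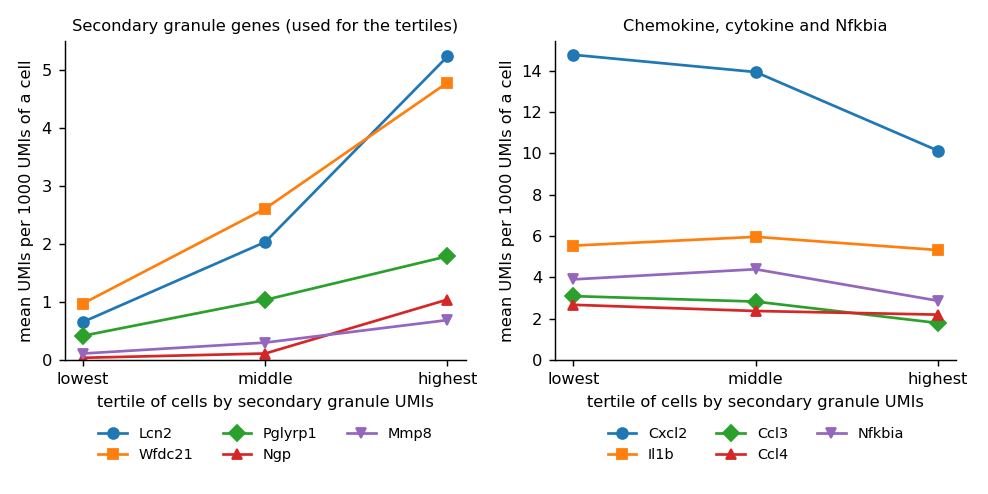
Mean UMIs per 1000 UMIs of a cell (vertical) in the lowest, middle and highest tertile of 526 thinned neutrophils ranked by secondary granule UMIs (horizontal), for 5 genes of that list on the left and 5 others on the right. The left lines rise by construction, and Cxcl2 falls from 14.8 to 10.1 while Il1b stays between 5.32 and 5.96.

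Across the same 526 cells, correlations were higher among chemokine and cytokine genes than between them and granule genes. Spearman rho was 0.51 for Cxcl2 with Ccl3, 0.45 for Cxcl2 with Il1b and 0.48 for the summed cytokine and chemokine lists, but -0.07 for secondary granule with chemokine UMIs and -0.01 for S100a8 with Cxcl2. Secondary granule and interferon-stimulated UMIs had a rho of 0.27. Points share 1 library and 1 thinning, sparse counts pull rho toward 0, and no test is attached.

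The 26 epidermal cells that met the same gate held 76452 UMIs, with a median of 2440 per cell and of 13.8% from calgranulins, against a median of 2.78% and a highest of 15.8% in 2168 epidermal keratinocytes. Of 6413 genes with at least 50 UMIs over both, 1469 (22.9%) were at least 2-fold higher in dermal neutrophils and 919 (14.3%) at least 2-fold lower, with a median log2 ratio of 0.17 and 1193 and 1234 after centring. Of the 1469, 1343 had at most 3 epidermal UMIs, so most of these calls rest on very few epidermal UMIs. The lower calls depended on the gene minimum. At 200 UMIs, 153 of 2632 genes (5.81%) were lower and 600 (22.8%) higher. Among 702 genes with 1000 UMIs or more, a limit set after the data were seen, 142 (20.2%) were higher and 28 (3.99%) lower.

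Cxcl2, Il1b and Cxcl3 stood higher in the epidermal cells, and Ccl3, Ccl4 and Tnf in the dermal ones. Cxcl2 was at 8453 CPM in dermis and 21281 CPM (20260 to 22341) in epidermis, Il1b at 3878 and 10726 CPM (10004 to 11486), and Cxcl3 at 252 and 2603 CPM (2254 to 2991). These put the log2 ratios of dermis to epidermis at -1.33, -1.47 and -3.37, although with a gate of 3 UMIs, which takes 1148 dermal and 41 epidermal cells, those of Cxcl2 and Il1b turned to 0.43 and 0.39. Ccl3 was at 1980 and 1230 CPM, Ccl4 at 1798 and 889, and Tnf at 338 and 131. Lcn2 stood at 1920 and 2865 CPM, Wfdc21 at 1729 and 1570, Ngp at 403 and 275 and Csf3r at 255 and 196 (110 to 324), the last 3 with ratio intervals that include 1. Camp and Ltf had no epidermal UMI.

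Of 15 measured chemokines, 11 were at least 2-fold higher in dermis and 3 lower, and all of the 11 but Ccl4 had no or 1 epidermal UMI. Of 12 identity genes outside the gate, 1 passed 2-fold, Il1r2, at 1089 against 2250 CPM, a log2 ratio of -1.05 that turned to 0.67 at a gate of 3 UMIs. Of 7 stefin A genes, 4 were at least 2-fold lower in dermis, among them BC100530, at 249 against 1988 CPM, Stfa3, at 58.8 against 458, and Stfa1, at 364 against 1256, while the log2 ratio of Stfa2l1 turned from -1.01 to 0.72 at a gate of 3 UMIs. Of 14 glycolysis and hypoxia genes, 7 were lower in dermis and none higher: Slc2a1 stood at 85.5 against 301 CPM, Ldha at 559 against 1360, Pgk1 at 281 against 693 and Pkm at 994 against 2054. All 6 measured MHC class II genes were higher in dermis, Cd74 at 2591 against 118 CPM, and at 1293 CPM in the 533 dermal members.

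The 10 highest were Saa3, Dcn, Crip1, Apod, Col3a1, Pf4, Rarres2, Ccl21a, Lgals1 and Ccl9, and all but Lgals1 had no epidermal UMI. Saa3, an acute-phase protein, stood at 3688 CPM in dermis. Set against a floor of 3 UMIs over all epidermal cells of the gate, Saa3 was 94.0-fold and Dcn 46.6-fold higher in dermis, and the lower limits of the exact intervals were 76.4 and 37.9. The 10 lowest were Krt5, Krt14, Lgals7, Dmkn, Ndufa4l2, Spp1, Cxcl3, BC100530, Ly6d and Stfa3. Krt14, a basal keratinocyte keratin, stood at 2.63 CPM in dermal and 8515 CPM in epidermal cells of the gate, Spp1 (osteopontin) at 172 and 1818 CPM, and 87.4% of the dermal Ly6d UMIs came from 1 cell. All 10 keratinocyte markers were seen in the epidermal cells, at a summed 12596 CPM against 30574 in 2168 epidermal keratinocytes. Fibroblast markers were at 3550 CPM in dermal and 52.3 CPM in epidermal cells of the gate. The part of keratinocyte and fibroblast RNA in the tissue differences was not tested, and tissue, sort and library cannot be told apart.

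**Figure D5:**
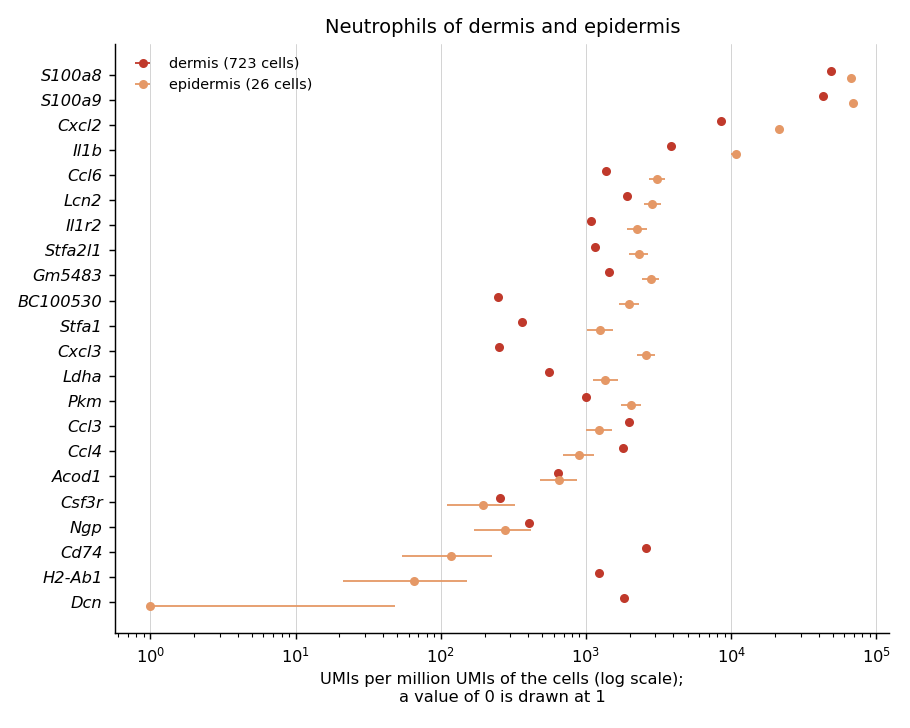
UMIs per 1000000 UMIs (log scale) of 22 genes in the 723 dermal (red) and 26 epidermal (orange) cells that met the gate, with exact 95% Poisson intervals that cover counting error only. Cxcl2, Il1b, Cxcl3 and the stefin genes lie further right in epidermis, Acod1 at 640 and 654 CPM coincides, and Cd74, H2-Ab1 and Dcn lie further right in dermis, with Dcn at 0 in epidermis drawn at 1.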

How the data were processed

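Single-cell libraries of IMQ-treated dermis and epidermis were analysed. After trimming, the authors ran Cell Ranger (version 3.0.2 in the file headers, build mm10 in the submitters' processing notes) and deposited raw UMI counts per gene and barcode, with no normalization, so shared transcript ends are split as that counting did. Barcodes with fewer than 200 or more than 5000 genes or over 10% mitochondrial UMIs were left out, and doublets, which the sort was set to leave out, were not removed further except in an alternative. The study itself used a stricter mitochondrial limit and DoubletFinder after this step. The members and the 32 gene lists were chosen with earlier results of these data known. Of 337 listed genes, 335 were found by symbol, and 30934 of 31053 identifiers matched GENCODE M21.

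UMIs were summed per class and divided by the class total (CPM). Ratios used a pseudocount of 0.5 UMIs and genes with at least 50 UMIs over both classes. With 1 library per tissue no test was run, and 2-fold was the limit for a call. Named genes were the 20 with the largest CPM, the 10 largest and 10 smallest ratios per comparison among genes with 100 UMIs or more (without mitochondrial, ribosomal, haemoglobin and gate genes), the gate genes, the leading, zero and extreme genes of each list, and the 5 most and least concentrated. Other genes were named for their role after their values were seen, and 1 gene that the rule names is not reported here. Shares across depths used cells thinned to 1000 UMIs, which left out 15 members, 3 T cells and no monocyte. The ratio script was tested on simulated data. Upstream sequences came from RefSeq (GRCm38.p6), gene positions from GENCODE M21. Alternatives varied the mitochondrial limit, the gate (3 or 10 UMIs), the C1q and Cd3 limits, doublet removal (Scrublet in scanpy 1.11.5, 0.8% per 1000 cells), the gene minimum, the pseudocount, the averaging and the cell with the most UMIs. Tables were read with pandas 2.3.3 in Python 3.11.15, sums taken with numpy 2.4.6, intervals with scipy 1.17.1 and plots with matplotlib 3.10.9.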

Additional observations from a re-analysis of the deposited data

How the results depend on the processing

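No paired analysis was possible because neither tissue has a second library. The count of 723 neutrophils lay between 531 and 827 under the other settings and rose to 1148 at a gate of 3 UMIs. The number of genes tested differed between settings, so shares are given with the counts. Genes higher than in monocytes (743, 8.91%) came to 1211 (11.6% of 10404) at a minimum of 20 UMIs and 324 (7.41% of 4370) at 200. Genes lower (357, 4.28%) came to 1033 (13.5% of 7646) at a gate of 10 and 144 (1.57% of 9200) at a gate of 3. They came to 161 (3.68% of 4370) at a minimum of 200 and 1293 (15.5% of 8336) with a mean over cells. In alternatives added after the data were seen, they came to 194 (2.33% of 8336) after centring. In members with at least 5% calgranulin UMIs, also added later, they came to 1699 (22.9% of 7412). Against epidermis, higher genes (1469, 22.9%) came to 2583 (30.0% of 8613) at a gate of 3 and 83 (1.29% of 6413) at a pseudocount of 5. They came to 600 (22.8% of 2632) at a minimum of 200 and, added later, 142 (20.2% of 702) at 1000. Lower genes (919, 14.3%) came to 1410 (16.4% of 8613) at a gate of 3 and 4561 (71.1% of 6413) at a pseudocount of 5. They came to 1684 (18.5% of 9084) at a minimum of 20 and 153 (5.81% of 2632) at 200. Added later were 28 (3.99% of 702) at a minimum of 1000 and 544 (13.1% of 4160) with 5% calgranulin.

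At a gate of 3 UMIs, which also shrinks the monocytes from 544 to 447 cells, log2 ratios against monocytes turned for Ccr7 (0.54), Cd209a (0.054), Cytl1 (3.75), Mcpt8 (0.62) and Prss34 (0.40), and against epidermis for Ccl6 (1.31), Cxcl2 (0.43), Il1b (0.39), Il1r2 (0.67) and Stfa2l1 (0.72). With 5% calgranulin, that of Ccl22 against monocytes was -0.035. The causes were not tested. The 76452 epidermal UMIs limit every comparison of tissues, since 1 UMI there is 13.1 CPM. A pseudocount of 5 UMIs raises epidermal levels more than dermal ones, which rest on 5694369 UMIs. By construction it moves ratios toward lower in dermis.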

Other observations

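Of the 122 non-members with at least 5% calgranulin UMIs, 33 had at least 15%, with a median of 1617 UMIs, and 16 had 10 or more gate UMIs and were left out by the C1q or Cd3 limits.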
